A study of Mus musculus with 8 samples.

Results

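The genes described here rose under glucose starvation in mouse embryonic fibroblasts (MEFs) carrying the RA form of Pontin while staying near level in MEFs carrying the WT form. The members were chosen by the measured responses themselves, on the scale log2(CPM + 1), where CPM is the deposited value, a gene's reads divided by a library size scaled by the authors and brought to a common total, and 1 is a pseudocount that damps the changes of low genes. A gene entered when its mean rose by at least 0.7 in RA, when its mean response in WT lay between -0.2 and 0.2, and when its mean CPM over all samples was at least 5. Of 49492 entries in the table, 49 met the rule. Selection therefore sets the direction of the response in RA, the flatness in WT and a gap between both responses of at least 0.5, and none of these was tested on the members. The 49 entries correspond to at most 43 separate signals, because 4 signals were each counted under several overlapping or near-identical entries, 10 entries in all. RP23-468H22.7 and RP23-478P10.3, which had no match in the annotation, could not be checked for overlaps or copies and count as separate signals.

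Pontin f/f MEFs, immortalised by serial passage, were made to express Flag-tagged Pontin stably from a lentivirus, and the endogenous floxed Pontin was then deleted with a Cre virus. WT cells carried the wild-type sequence, and RA cells a form with 2 arginines changed to alanine, at positions that the methyltransferase CARM1 modifies in the WT protein. The 8 libraries were WT normal, WT starved, RA normal and RA starved, with 2 samples each, where normal is the complete medium and starved is medium without glucose; the starvation time of these libraries was not given in the sources used here. Each Pontin form is 1 stable line, and an effect of the line cannot be told apart from an effect of the Pontin form, and p-values measure the spread between the 2 samples of a group, which may be technical.

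Pontin, encoded by Ruvbl1, is an AAA+ ATPase that works with Reptin in chromatin-remodelling complexes and in the Tip60 acetyltransferase complex. Loss of glucose activates AMPK, slows anabolic transcription and turns on autophagy and stress programmes, and embryonic fibroblasts also hold a tonic programme of interferon, matrix and cytoskeletal genes. A gene that rises in one line and stays level in the other can start from the same level in both lines or from different ones, so the level in normal medium is described for each member beside its response.

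The libraries held between 43205841 and 56363034 reads, and 3 reads, taken as the smallest amount that can be told from 0, were worth 0.0548 to 0.0690 CPM, so every member value, the lowest being 80 reads, lay far above that floor. These totals cover counting error only. Ruvbl1 itself was at 28.0 ± 0.58 CPM (SD, n = 2) in WT normal, 28.2 ± 0.38 in WT starved, 34.4 ± 3.4 in RA normal and 44.0 ± 1.5 in RA starved, and these totals do not separate the introduced copy from the endogenous locus. All 9 fibroblast markers were expressed, with a summed level between 5563 and 11170 CPM. In contrast, 4 lymphocyte markers summed to 0.196 to 1.53 CPM with 2 of them at 0 everywhere, and 7 macrophage markers summed to 18.5 to 22.2 CPM.

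The choice of members can be placed among all entries that were high enough to be considered. There were 12099 entries with a mean of at least 5 CPM, and 1206 of them rose by at least 0.7 in RA. In 1073 of these the WT response was above 0.2, in 84 it was below -0.2 and in 49 it lay within 0.2 of 0. The same rule with WT and RA exchanged gave 86 entries. Among the members, the response in RA ran from 0.71 to 2.08 with a median of 0.87, a ratio of CPM means between 1.66 and 5.12, and the response in WT ran from -0.19 to 0.20 with a median of 0.04. The WT window is a limit on size and not on significance. limma called the WT response of 10 members higher, such as Trp53inp2, Naaa and Fhl1, and of 2 lower, Siglecg and Cacna1a, beside 39.3% higher and 39.2% lower among 16232 genes tested, and it called all 49 RA responses higher, beside 35% higher and 33.7% lower; since the rule used both responses, nothing is read from these counts.

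**Figure D1:**
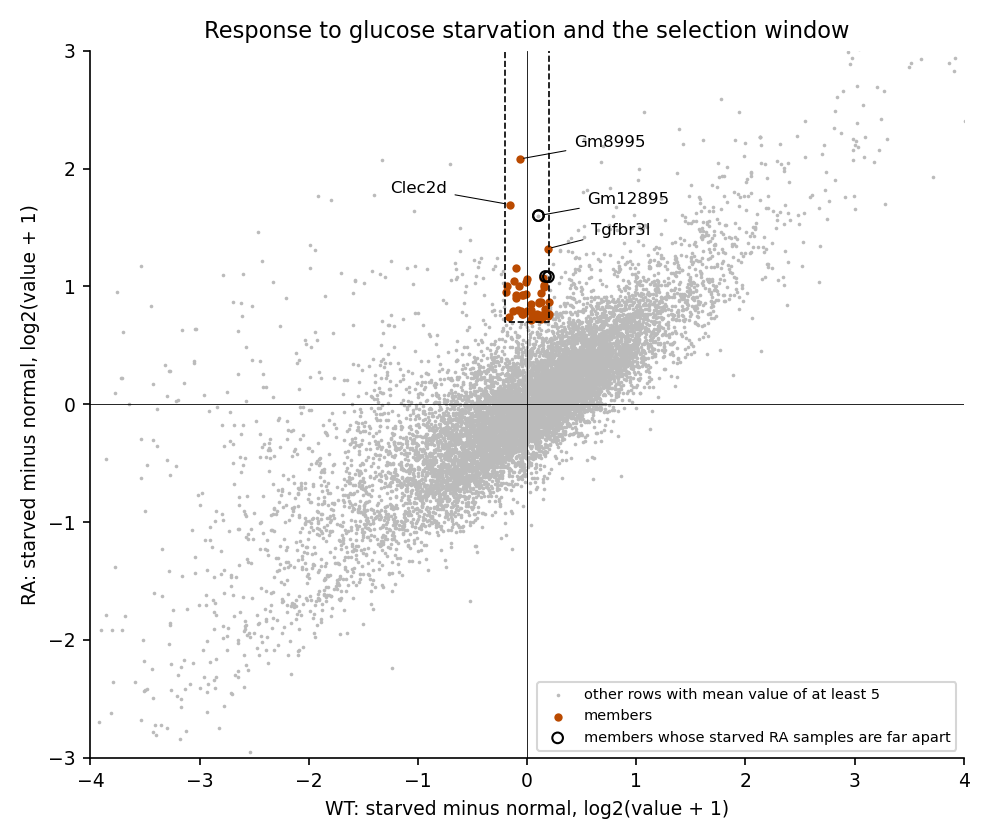
Response to glucose starvation on the log2(CPM + 1) scale, WT on the horizontal and RA on the vertical axis, for entries with a mean of at least 5 CPM (grey), with the 49 members in orange and the selection window dashed; entries beyond the axes are not drawn. Most members lie just above the lower edge at 0.7, Gm8995 and Clec2d stand highest, and 4 members drawn as open circles (2 pairs that coincide) have starved RA samples far apart.

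The edges of the window cut through a continuous cloud. Just inside the limit on the RA response lay Gm15701 (0.71), Hey2 (0.73) and Gm21092 (0.73), and just outside it Abca2 (0.70), Hpse (0.70) and Ghr (0.69), the growth hormone receptor. At the upper limit on WT the nearest entries inside were 6820431F20Rik (0.20), Trp53inp2 (0.20) and Cmss1 (0.20), and outside it Ccdc136 (0.21), Eomes (0.21) and Pisd-ps1 (0.21). At the lower limit Cacna1a (-0.19), Apobec1 (-0.18) and Erap1 (-0.16) were inside, and Gm7030 (-0.21), Dusp1 (-0.22) and Sned1 (-0.22) were outside. Gm13442 (5.40), Adcy1 (5.43) and Tgfbr3l (5.44) were the members with the lowest mean CPM, and Gm6034 (4.47), Slc8a1 (4.42) and Lrrc27 (4.26) met the other limits but fell below it.

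In 4 entries the starved RA samples were far apart, by at least 1 on the log2 scale. Filip1l, a protein linked to actin and cell migration, was at 502 CPM in one starved RA sample and 1929 in the other, against 474 and 454 in RA normal. Cmss1, whose gene body encloses Filip1l on the opposite strand, was at 519 and 1946 CPM in the starved RA samples. The identical processed pseudogenes Gm12895 and Gm12896 were at 3.60 and 16.5 CPM there, against 1.84 and 2.09 in RA normal and 4.68 to 5.45 in WT. In all 4 the starved RA sample with replicate number 2 was the high one. Over the 12099 entries with a mean of at least 5 CPM, 20 differed by at least 1 on the log2 scale between the starved RA samples, all of them higher in replicate 2, compared with 0 in WT normal, 1 in WT starved and 1 in RA normal. The other 16 included Lars2 (316 and 926 CPM), Cdk8 (243 and 1164) and Jarid2 (103 and 472), named after their values were seen. Without RA starved replicate 2 the RA response fell to 0.12 for Filip1l, 0.13 for Cmss1 and 0.64 for Gm12895 and Gm12896, all below the limit of 0.7. Members close to that limit also crossed it when 1 RA library was left out, without such a gap: the RA response was then 0.59 or 0.68 for Plag1, 0.57 for Hey2, 0.65 for Gm13442, 0.68 for Klhdc8b, 0.68 for Jak2, and 0.69 or 0.68 for Gm15701. The remaining 45 members had starved RA samples within 0.32 of each other on the log2 scale.

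The members covered unlike functions. In an order set after their values were seen, 10 act in immune signalling and defence, 6 in matrix, guidance and surface reception, 6 in the cytoskeleton and cilia, 5 in channels, transport and second messengers and 7 in transcription and RNA, while 4 are enzymes and other proteins and 11 are pseudogenes or unnamed entries. Median responses in RA were between 0.76 and 1.02 in all 7 groups, a narrow range just above the limit of 0.7 that chose them. By the GENCODE annotation, 37 of the 47 entries that matched were protein coding, 2 were antisense transcripts and 8 were pseudogenes of 3 kinds (3 transcribed unprocessed, 3 unprocessed and 2 processed).

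The immune group held both members with the largest RA response. Gm8995, a pseudogene of the family of interferon-induced very large GTPases, was at 2.96 and 3.97 CPM in WT normal, 2.93 and 3.54 in WT starved, 9.43 and 9.40 in RA normal and 42.8 and 43.3 in RA starved. Clec2d, a C-type lectin that natural killer cell receptors recognise, was at 4.67 and 6.01, then 4.36 and 4.97, then 8.76 and 9.73, and finally 31.5 and 32.7 CPM in the same order of groups. For both genes the order was WT starved or normal, then RA normal, then RA starved, with no overlap between RA and WT samples. The RA response was 2.08 for Gm8995 and 1.69 for Clec2d.

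Siglecg, a sialic acid-binding lectin known for restraining B cell signalling, had the highest CPM of the immune members. Its values were 56.8 and 57.3 CPM in WT normal, 53.5 and 52.8 in WT starved, 69.3 and 68.7 in RA normal and 156 and 154 in RA starved. The lymphocyte markers stayed at or near 0 in the same libraries, including Cd3e and Cd3d at 0 in every sample. Parp11, a mono-ADP-ribosyltransferase, was at 13.0 and 13.7 CPM in WT normal, 12.9 and 11.4 in WT starved, 24.3 and 23.1 in RA normal and 40.0 and 43.7 in RA starved. Erap1, the aminopeptidase that trims peptides for MHC class I in the endoplasmic reticulum, went from 24.3 and 23.9 CPM in RA normal to 41.2 and 40.6 in RA starved, with 15.1 to 18.7 in the WT samples. Both genes thus stood above WT already in normal medium and moved further away under starvation.

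Of the other immune members, Jak2, Ikbke, Tnfrsf11a and Rassf5 were not called different between the lines in normal medium, and Apobec1 was higher in RA. Jak2, the tyrosine kinase downstream of many cytokine receptors, was at 35.5 to 41.9 CPM in the 6 samples other than RA starved, where it was 66.4 and 64.7. Ikbke, a kinase that activates interferon and NF-kB signalling, was at 8.48 to 9.65 CPM in those 6 samples and at 16.1 and 15.2 in RA starved. Tnfrsf11a, the receptor RANK, was at 3.51 to 4.69 CPM and then 10.8 and 10.04. Rassf5, an effector of Ras and Rap that lies next to Ikbke on chromosome 1 with 0 protein-coding genes between them, was at 10.32 to 11.7 CPM and then 19.6 and 21.2. Apobec1, the cytidine deaminase that edits apolipoprotein B mRNA, was at 6.90 and 8.04 CPM in RA normal and 15.9 and 16.02 in RA starved, against 4.61 to 5.65 in WT.

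**Figure D2:**
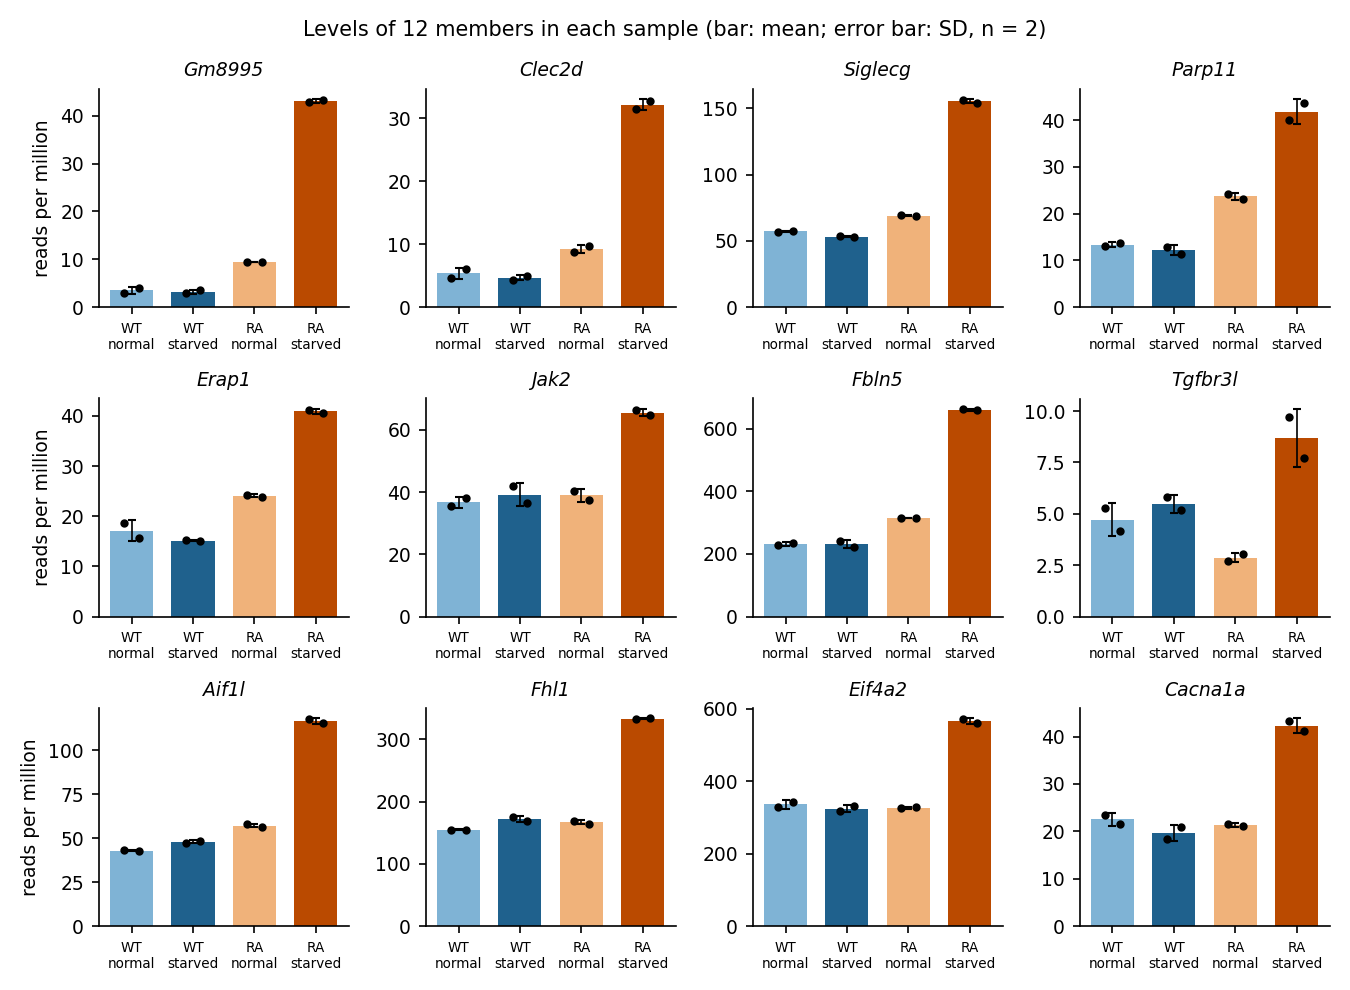
CPM of 12 members in each of the 8 samples (points), with group means (bars) and SD (error bars, n = 2). The starved RA samples stand above the other 6 in every panel, and the RA normal bar is above the WT normal bar for Gm8995, Clec2d, Siglecg, Parp11, Erap1, Fbln5 and Aif1l, near it for Jak2, Fhl1, Eif4a2 and Cacna1a, and below it for Tgfbr3l.

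RefSeq promoters of GRCm38.p6, from 250 bases before to 50 bases after each start, were found for 32 members, as 39 windows. A core of the interferon-stimulated response element, 2 GAAA runs with 2 free bases between them, was searched on both strands and occurred in 5 of the 39 windows (12.8%), against 3.44% of 32851 windows of all genes. Those 5 windows, shown because they are all the members with this match, belonged to Clec2d (chr6:129180365-129180664, plus strand), Parp11 (chr6:127446590-127446889, plus strand), Erap1 (chr13:74639603-74639902, plus strand), Fbln5 (chr12:101818435-101818734, minus strand) and Lurap1l (chr4:80910436-80910735, plus strand). They are printed 5′ to 3′ in the direction of the gene, and capitals mark the match or its reverse complement.
Clec2d: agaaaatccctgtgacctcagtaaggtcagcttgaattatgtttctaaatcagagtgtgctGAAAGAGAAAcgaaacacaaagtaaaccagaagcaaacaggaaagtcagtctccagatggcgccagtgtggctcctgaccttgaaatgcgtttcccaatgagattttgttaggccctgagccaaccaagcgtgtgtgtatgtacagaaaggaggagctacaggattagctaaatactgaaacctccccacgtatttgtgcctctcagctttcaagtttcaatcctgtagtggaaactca
Parp11: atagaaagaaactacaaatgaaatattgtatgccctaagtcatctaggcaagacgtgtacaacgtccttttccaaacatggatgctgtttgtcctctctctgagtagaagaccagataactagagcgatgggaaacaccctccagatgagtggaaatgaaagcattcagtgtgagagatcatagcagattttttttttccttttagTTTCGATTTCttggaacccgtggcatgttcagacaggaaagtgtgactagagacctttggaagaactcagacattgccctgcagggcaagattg
Erap1: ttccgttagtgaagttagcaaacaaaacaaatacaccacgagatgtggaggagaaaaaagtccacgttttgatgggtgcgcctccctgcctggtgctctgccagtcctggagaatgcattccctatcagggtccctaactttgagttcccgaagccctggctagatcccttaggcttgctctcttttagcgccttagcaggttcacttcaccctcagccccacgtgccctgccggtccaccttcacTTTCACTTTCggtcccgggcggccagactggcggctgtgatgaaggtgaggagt
Fbln5: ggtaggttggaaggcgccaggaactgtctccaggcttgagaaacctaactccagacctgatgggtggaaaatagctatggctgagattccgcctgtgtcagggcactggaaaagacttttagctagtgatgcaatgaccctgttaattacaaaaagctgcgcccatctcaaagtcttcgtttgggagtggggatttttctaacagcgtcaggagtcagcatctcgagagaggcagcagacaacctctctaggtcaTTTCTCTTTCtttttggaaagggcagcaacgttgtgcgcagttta
Lurap1l: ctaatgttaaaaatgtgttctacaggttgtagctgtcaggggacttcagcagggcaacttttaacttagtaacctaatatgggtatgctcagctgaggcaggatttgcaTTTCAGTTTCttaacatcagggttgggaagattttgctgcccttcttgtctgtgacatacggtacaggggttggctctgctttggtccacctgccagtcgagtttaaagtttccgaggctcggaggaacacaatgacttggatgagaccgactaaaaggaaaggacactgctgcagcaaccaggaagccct
The match began at position -189 from the start in Clec2d, -44 in Parp11, -4 in Erap1, 6 in Fbln5 and -141 in Lurap1l. Of these genes, Clec2d, Parp11, Erap1 and Fbln5 were higher in RA than in WT in normal medium, and Lurap1l was not called. Parp11 and Fbln5 each also had another promoter window, which lacked this match. Matches for the other motifs occurred at shares both above and below those of all windows. CCGCCC, the Sp/KLF motif, was in 59% of member windows and 35.7% of all, the NF-kB motif in 64.1% and 50.8%, the AP-1 letters TGANTCA in 2.56% and 7.81%, and TTCNNGAA, the STAT core, in 4 of the 39 member windows and 8.52% of all. For the letters CACGTG, an E-box, the shares were 7.69% and 7.15%, for CCAAT 33.3% and 37.4%, for TATAAA 7.69% and 13.6%, and for TGACGT 7.69% and 7.51%. GTAAACA, a FOXO motif, was in 0 of the 39 windows and in 3.65% of all, which says only that these letters were not in these windows. The NF-kB pattern searched leaves 5 bases free between its fixed ends and matched 50.8% of all windows, so a match does not mark an NF-kB site. The windows of all genes were not limited to expressed genes, while members had to reach a mean of 5 CPM, so the shares are not matched for expression. Windows of the same gene can overlap. The 4 STAT core windows came from 3 genes, and those of Siglecg hold the same site. All these matches are descriptions of letters and not of binding.

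Matrix and receptor members included one of the strongest signals in amount. Fbln5, a protein of elastic fibres, was at 229 and 236 CPM in WT normal, 242 and 223 in WT starved, 315 and 316 in RA normal and 663 and 659 in RA starved. The WT groups had the same mean, 232 CPM, so the flatness of this gene in WT was among the closest in the set, while its RA response was 1.06. Adamts6, a secreted metalloprotease, was at 23.8 to 30.0 CPM in the 6 samples other than RA starved and at 57.6 and 56.9 there. Slit3, a secreted ligand of Robo receptors, was at 34.7 to 40.7 CPM and then 72.6 and 69.5. Fzd7, a Wnt receptor, was at 32.6 to 36.3 CPM and then 67.7 and 63.3. Plxnd1, a semaphorin receptor, was at 7.08 to 8.96 CPM and then 16.3 and 15.0. None of these 4 genes was called different between the lines in normal medium. RA normal and WT samples were interleaved for Adamts6 and Plxnd1. For Slit3 (39.9 and 40.7 CPM) and Fzd7 (36.3 and 35.4 CPM) both RA normal samples lay above all WT samples, by a few CPM.

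Tgfbr3l, a receptor-like gene related to betaglycan, was the matrix and receptor member called lower in RA in normal medium. It was at 5.28 and 4.15 CPM in WT normal, 5.80 and 5.17 in WT starved, 2.71 and 3.02 in RA normal and 9.70 and 7.70 in RA starved. RA thus ran from the lowest to the highest group. In the annotation Tgfbr3l shares 1530 exonic bases with Gm49320 on the same strand, so its reads are not assigned with certainty.

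Among cytoskeletal members, Fhl1, a LIM-domain protein of muscle and fibroblasts, was at 155 and 154 CPM in WT normal, 175 and 169 in WT starved, 169 and 164 in RA normal and 333 and 333 in RA starved. Aif1l, an actin-binding protein, was at 43.3 and 42.5, then 47.3 and 48.4, then 57.7 and 56.3, and then 117 and 115 CPM. Its antisense partner Gm13442, which shares 168 exonic bases with it, was itself a member at 3.41 to 5.31 CPM outside RA starved and 9.05 and 8.80 within it, and since the handling of strand is not stated the reads of both cannot be told apart. Mtus1, a microtubule-associated protein, was at 13.6 to 19.1 CPM and then 40.2 and 40.4. Lurap1l was at 30.6 to 35.7 CPM and then 70.0 and 66.3, and Dnal1, a light chain of axonemal dynein, was at 9.997 to 11.7 CPM and then 20.4 and 22.2.

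Channel, transport and second-messenger members were low in amount and close to level between the lines. Cacna1a, the pore of P/Q-type calcium channels, was at 23.5 and 21.6 CPM in WT normal, 18.4 and 20.9 in WT starved, 21.6 and 21.1 in RA normal and 43.4 and 41.1 in RA starved. Its WT response was the most negative of the set at -0.19. Adcy1, an adenylyl cyclase stimulated by calcium, Slc4a3, an anion exchanger, Exoc6, a subunit of the exocyst, and Ica1l, a relative of islet cell autoantigen 1, had single values in RA starved between 8.27 and 20.8 CPM. None of these 5 was called different between the lines in normal medium, and their RA responses lay between 0.86 and 0.95. The summed level of 5 neuronal markers in the same libraries was 235 to 241 CPM in WT normal, 80.2 to 85.3 in WT starved, 243 to 259 in RA normal and 124 to 127 in RA starved, lower under starvation in both lines.

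The transcription and RNA members covered a wide range of amounts. Eif4a2, an RNA helicase of the translation initiation factor eIF4F, was at 327 and 344 CPM in WT normal, 317 and 330 in WT starved, 324 and 328 in RA normal and 571 and 560 in RA starved. The other 6 samples thus shared a level, and both starved RA samples were about 1.73 times as high as RA normal. Runx1t1, a transcriptional corepressor, was at 10.7 to 12.6 CPM and then 23.3 and 23.8. Trp53inp2, a protein with roles in autophagosome formation and in transcription, was at 20.9 to 25.5 CPM and then 48.1 and 46.0. Ints6l, related to an Integrator subunit, Plag1, a zinc finger factor, and Hey2, a Notch target repressor, reached means of 14.5, 11.9 and 9.16 CPM in RA starved from 7.89, 6.76 and 5.11 in RA normal.

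The enzymes and other proteins were Msrb3, a methionine sulfoxide reductase, Naaa, a lysosomal hydrolase of N-acylethanolamines, Plekhn1 and Klhdc8b. Msrb3 was at 94.8 and 91.3 CPM in WT normal, 104 and 99.0 in WT starved, 86.2 and 82.8 in RA normal and 143 and 143 in RA starved. Naaa was at 15.3 to 18.8 CPM outside RA starved and 33.8 and 32.4 within it. Plekhn1 and Klhdc8b had RA responses of 0.92 and 0.76.

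The level in normal medium is the comparison that the rule left most open. RA and WT were compared there with limma over all 16232 genes, and 11 members were called higher in RA, 4 lower and 34 in neither direction, beside 6.68% higher and 2.95% lower among all genes tested. The median difference over the members was 0.02, beside 0.01 over all genes, and 29 members lay within 0.20 of 0. This comparison uses the same normal samples as the rule, in which a low RA normal level favours selection, so the shares of the members are not free of the rule. Both RA normal samples lay above both WT normal samples in 20 members, beside 28.5% of all genes tested, and below them in 18, beside 24.6%.

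The 11 genes called higher led with Gm8995, whose difference was 1.23 (SE 0.11, adjusted p = 1.15e-06 by limma), followed by Parp11 at 0.78 (SE 0.08, adjusted p = 2.27e-06 by limma) and Clec2d at 0.70 (SE 0.11, adjusted p = 0.00049 by limma). Fbln5 differed by 0.44 and Aif1l by 0.40, with small errors (SE 0.04 for both). Erap1 was higher by 0.47, Apobec1 by 0.39, Mtus1 by 0.30, Siglecg by 0.27, Trp53inp2 by 0.24 and Naaa by 0.24. Gm8995, Parp11, Clec2d, Erap1, Fbln5, Aif1l and Siglecg, 7 of the 11, were called higher in every alternative fit that was run, and Apobec1, Mtus1, Trp53inp2 and Naaa each lost the call in at least 1. Leaving out WT normal replicate 2 left those 7. Of the 11, 6 belong to the 10 immune members, 2 to the 6 cytoskeletal ones, and 1 each to the matrix, transcription and enzyme groups. The groups were drawn after the values were seen. Gm8995, annotated as a pseudogene, was placed with the immune members, while the group of pseudogenes and unnamed entries had 0 called higher.

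Lower in RA normal were Tgfbr3l at -0.56 (SE 0.13, adjusted p = 0.0126 by limma), the unnamed entry RP23-468H22.7 at -0.22, and the pseudogenes Gm21811 at -0.13 and Gm21092 at -0.12, which are copies of one another. All 4 calls were lost when WT normal replicate 1 was left out, and 3 of them when WT normal replicate 2 or RA normal replicate 2 was left out; leaving out either RA starved sample gave 7 lower calls. Gm12895 and Gm12896 had the lowest estimate, -0.99 (SE 0.36, adjusted p = 0.0926 by limma), and the error of that fit includes the gap between their starved RA samples. Their values in normal medium did not overlap, at 5.09 and 4.68 CPM in WT and 1.84 and 2.09 in RA.

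**Figure D3:**
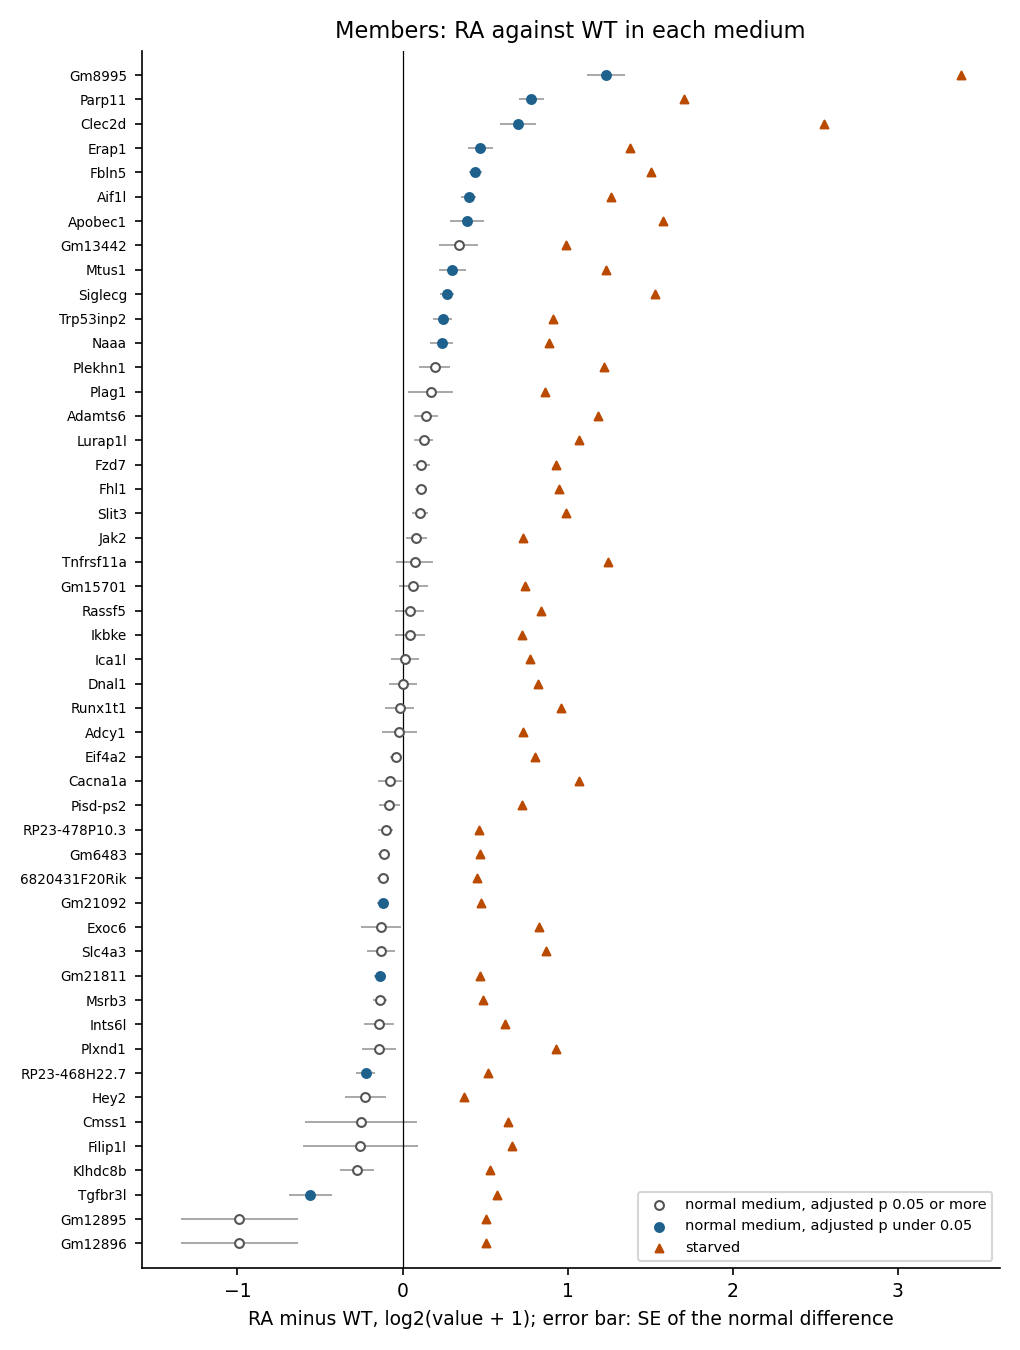
RA minus WT on the log2(CPM + 1) scale for each of the 49 members, in normal medium (circles with SE, filled where limma's adjusted p is under 0.05) and under starvation (triangles). The circles spread on both sides of 0, from -0.99 to 1.23, while all triangles are right of 0, which the selection rule largely sets.

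Under starvation the difference between the lines is the normal difference plus a gap of at least 0.5 that the rule imposed. It ran from 0.37 for Hey2 to 3.38 for Gm8995, with a median of 0.84. As a description, limma called 45 members higher in RA and 0 lower, beside 30.8% higher and 32.1% lower among all genes tested; edgeR and DESeq2 on the recovered reads also called 0 lower, and with a raw p under 0.05 limma's count of lower members was likewise 0. The 4 members without a call were Filip1l, Cmss1, Gm12895 and Gm12896, those whose starved RA samples differed most; edgeR on the recovered reads called 47 higher, adding Filip1l and Cmss1. Both starved RA samples were above the other 6 samples in the remaining 45, beside 14% of all genes tested.

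Most genes on an interferon response list had another shape, falling under starvation in WT. Of its 62 genes, all tested, limma called 60 higher in RA in normal medium and 60 lower under starvation in WT (median response -2.23). Under starvation in RA it called 45 higher and 7 lower (median 0.45). That 0 of the 62 were members is nearly fixed by their fall in WT, which the WT window excludes. The list also leaves out Gm8995, Clec2d and Parp11, described above by an interferon-induced family or the promoter element. The 0 therefore does not set the members apart from the interferon response. Ifit3, an interferon-induced antiviral protein, shows this shape with means of 82.7 CPM in WT normal, 3.29 in WT starved, 332 in RA normal and 662 in RA starved. Irf7, the factor that amplifies interferon transcription, went from 34.6 to 5.61 CPM in WT and from 87.5 to 204 in RA. Erap1 was the one member on a list of 19 tested antigen presentation genes, of which 14 rose and 1 fell in RA while 4 rose and 13 fell in WT. Ikbke was the one member among 15 tested genes of RNA and DNA sensing, of which 4 rose and 5 fell in RA, and 2 rose and 11 fell in WT. Among all genes tested, 35% were called higher and 33.7% lower in RA, and 39.3% higher and 39.2% lower in WT, so the RA counts of the sensing genes are near the background.

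Other lists held 0 members, and their genes moved in both lines. The lists are short and do not include Trp53inp2, Naaa or Fbln5, described above by autophagosome, lysosomal and elastic fibre roles. With 49 members among 16232 genes tested, 0 members on a short list says little. Of 22 genes of endoplasmic reticulum stress and ATF4, 22 rose in RA and 22 in WT. Of 36 tested autophagy genes, 29 rose and 3 fell in RA and 30 rose and 2 fell in WT. Among 31 lysosomal genes, 26 rose and 3 fell in RA and 23 rose and 5 fell in WT. Median responses were 0.341 in RA and 0.597 in WT for autophagy, and 0.92 and 1.15 for the lysosome. Starved RA against starved WT gave 4 higher and 22 lower for autophagy, and 8 higher and 13 lower for the lysosome. For all genes tested that comparison gave 30.8% higher and 32.1% lower. Matrix genes mostly fell in both lines, with 6 higher and 19 lower of 28 in RA and 5 higher and 22 lower in WT. For 24 genes of the contractile cytoskeleton and YAP targets the counts were 15 higher and 6 lower in RA and 4 higher and 19 lower in WT. NF-kB and cytokine genes, 28 tested, gave 18 higher and 8 lower in RA and 7 higher and 18 lower in WT. Over all genes tested the shares were 35% higher and 33.7% lower in RA and 39.3% higher and 39.2% lower in WT. The groups compared share samples, so these counts stand side by side without a test of their difference.

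Among relatives of pseudogene members, some pseudogene copies followed them closely, while the protein-coding Cdh11, Gvin1 and Pisd moved in other ways. Gm6483, Gm21811, Gm21092 and 6820431F20Rik, all on chromosome 8, are 96.2% to 99.2% identical to each other over their aligned bases and are also copies of part of Cdh11, the gene of a fibroblast cadherin, at 94.8% to 96.0% identity. Their values were higher together, Gm21092 going from 263 and 268 CPM in RA normal to 438 and 445 in RA starved, with 288 and 288 in WT normal and 320 and 315 in WT starved. The ratio of Gm6483 to Gm21092 stayed between 0.475 and 0.507 over the 8 samples, and that of Gm21811 to Gm21092 between 0.998 and 1.029. Cdh11 itself fell in WT from a mean of 40.4 to 16.1 CPM and was at 43.1 and 43.4 in RA normal and starved. 2610005L07Rik, a further copy, had means of 343 and 400 CPM in WT and 314 and 535 in RA, and missed the rule with a WT response of 0.22. How reads were shared among these copies is not stated, so the 4 entries are uncertain as separate measurements.

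Gm8995 is 91.9% identical to Gvin1, a protein-coding very large GTPase, over 7294 aligned bases. Gvin1 fell in WT from a mean of 48.1 to 15.4 CPM and rose in RA from 118 to 245 CPM, so it left the window by its WT response of -1.58 while Gm8995 stayed at 3.46 and 3.24 CPM in WT. Over the copies of Gm8995, Pearson's r with it on log2(CPM + 1) ran from 0.745 (Gm18853) to 0.984 (Gm8989), with 0.968 for Gm8979 and 0.888 for Gvin1. How reads were shared among these copies is not stated either, so Gm8995 and Gvin1 are uncertain as separate measurements. Pisd-ps2, a pseudogene of the phosphatidylserine decarboxylase gene Pisd with 94.1% identity, was at 29.6 and 28.9, 30.1 and 26.9, 26.97 and 28.3, and 47.3 and 47.8 CPM in WT normal, WT starved, RA normal and RA starved. Pisd itself was at means of 47.9, 48.3, 51.3 and 60.8 CPM in the same order. In all, 14 members share at least 1 exonic base with another annotated gene, 12 of them on the opposite strand. Erap1 shares 834 bases with Cast, a calpain inhibitor whose means were 150 and 143 CPM in WT and 161 and 185 in RA, and Eif4a2 shares 194 with Rfc4, a replication factor C subunit whose means were 25.3 and 29.1 CPM in WT and 24.9 and 18.9 in RA, opposite to Eif4a2 under starvation.

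**Figure D4:**
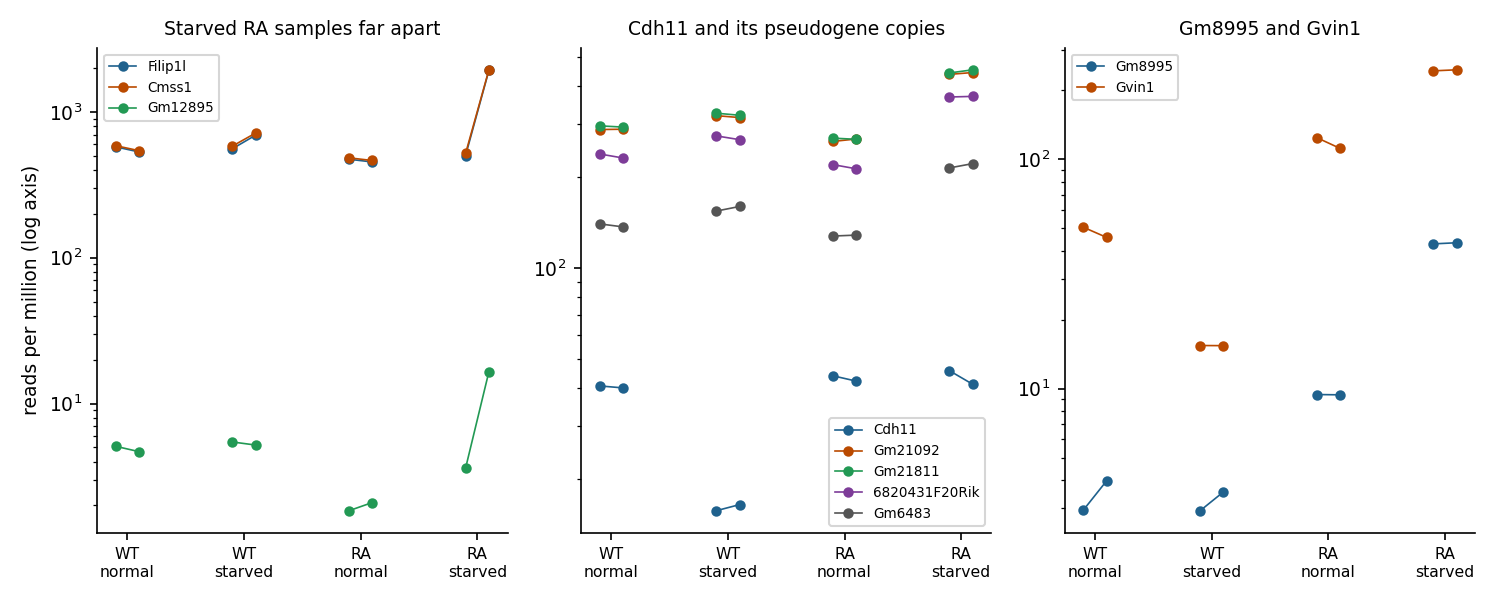
CPM on a log axis in each sample (joined points are the 2 samples of a group) for members whose starved RA samples were far apart (left), for Cdh11 and 4 pseudogene copies (middle) and for Gm8995 and Gvin1 (right). The left panel shows single high points at 1929, 1946 and 16.5 CPM, the middle one Cdh11 falling in WT starved where its copies are slightly higher than in WT normal, and the right one Gvin1 falling in WT starved where Gm8995 stays level.

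Levels were compared between genes per kilobase of exonic length in the annotation. In WT normal the highest protein-coding members on this scale, leaving aside the overlapping pair Cmss1 and Filip1l, were Eif4a2 at 62.9 CPM per kilobase, Fhl1 at 41.6, Fbln5 at 33.6 and Msrb3 at 22.99. Siglecg stood at 11.9, Aif1l at 10.6, Lurap1l at 10.5 and Jak2 at 7.30. The lowest were Adcy1 at 0.344, Plag1 at 0.693, Tnfrsf11a at 0.710 and Klhdc8b at 0.796 CPM per kilobase. In RA starved Eif4a2 at 106, Fbln5 at 95.6 and Fhl1 at 89.7 were the highest of the same genes. Clec2d was at 4.40 in WT normal, 3.845 in WT starved, 7.62 in RA normal and 26.5 in RA starved.

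Over the 8 samples the genes whose values followed Gm8995 most closely, by Pearson's r on log2(CPM + 1), were Clec2d (r = 0.996), Csrp1 (r = 0.995), a LIM-domain protein, and Plaur (r = 0.994), the urokinase receptor. Csrp1 and Plaur had RA responses of 0.33 and 0.39 and WT responses of 0.02 and -0.01, so they shared the shape at a smaller size. The points are 8 libraries in 4 groups, and r describes them only.

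**Figure D5:**
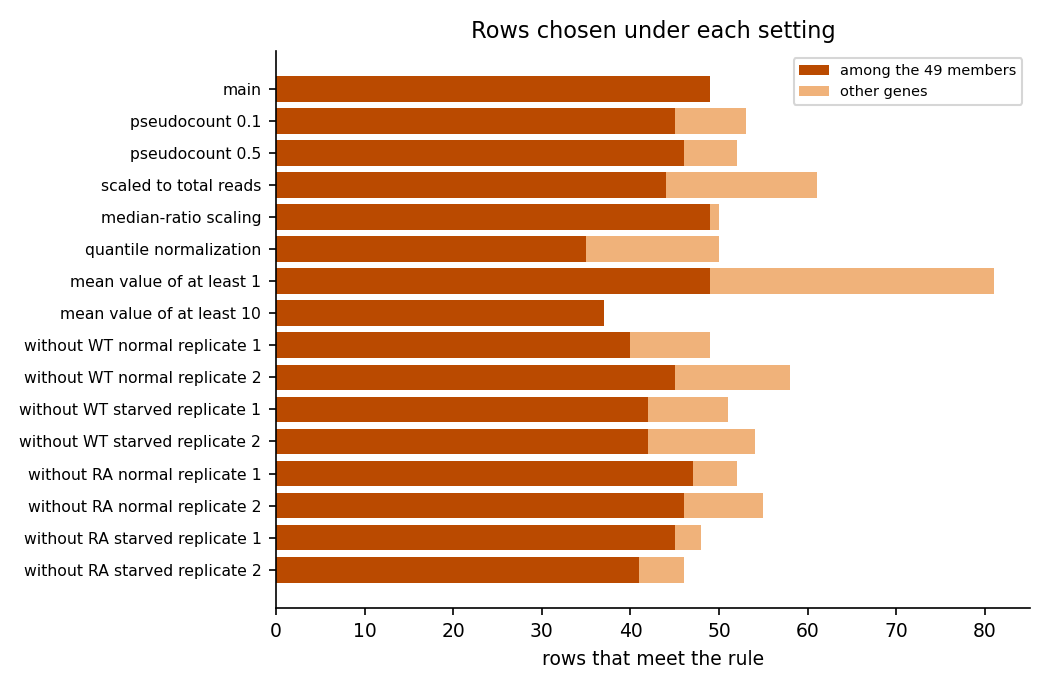
Number of entries that meet the rule under each setting (horizontal axis), split into those among the 49 members (dark) and others (light). The total lies between 46 and 61 except with the lower or higher limit on mean CPM, where it is 81 and 37. Quantile normalization keeps the fewest of the members, 35.

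The membership depended on the edges of the rule. Over 14 alternative settings, leaving aside the higher limit on mean CPM, 20 members met the rule every time, among them Siglecg, Fbln5, Aif1l, Fhl1, Eif4a2, Slit3 and Fzd7. The 14 include the lower limit of 1 CPM, which no member could fail. Quantile normalization kept 35 of the 49, since it moved WT responses such as that of Tgfbr3l to 0.36. Gm8995 and Clec2d met the RA limit under every setting, and left the window only through WT responses of -0.23 and -0.31 when WT normal replicate 1 was left out, and Clec2d also with WT responses of -0.22 under total-read scaling and -0.23 without WT starved replicate 2.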

How the data were processed

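Polyadenylated RNA of 8 mouse embryonic fibroblast samples was sequenced as paired-end reads by the authors, with TruSeq v2 libraries on an Illumina HiSeq, and mapped with TopHat to mm9 (TopHat2 2.0.9, bedtools and edgeR per the submitters' processing notes); the read counter, gene annotation and strand handling are not given in the sources used here. The deposited table holds a signal, each gene's reads divided by a library size scaled by the authors, in CPM, so columns sum to 965845 to 1029723. Columns marked minus and plus were read as normal and starved. In every sample 100% of the values up to 1000 reads were whole multiples of 1 read (tolerance 0.1), which gave the reads for edgeR 4.0.16 and DESeq2 1.42.0 as alternatives. The main test was limma 3.58.1 (R 4.3.3) on log2(CPM + 1) over all 8 samples, with a variance trend and Benjamini-Hochberg adjustment over 16232 genes at 1 CPM or more in at least 2 samples, called at adjusted p under 0.05 and tested on simulated data. All 49 members passed this filter, whichever group was high; 78.2% to 80.5% of read counts from 1 to 9 were even, so mates appear to be counted singly, and, as an alternative chosen after seeing the data, edgeR was also run on halved reads.

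Members and lists were chosen with earlier results of these data known. Named genes were the 12 members with the largest RA response, the 12 highest in mean CPM, those 0.5 or more apart in normal medium, members on a list, the 3 nearest each limit, Ruvbl1, and the 3 genes most like the leading member; functional groups, relatives and further members were named after their values were seen. Gene types, lengths and overlaps came from GENCODE M21 (GRCm38, 47 of 49 matched) and copies from alignments of at least 90% identity over 200 bases. Of 26 entries named as dates, 0 were members.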

Additional observations from a re-analysis of the deposited data

Results flagged for a closer look

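The following genes, which are not members but are Pontin's own gene or relatives of members, responded differently in the lines by the interaction term of limma, as response in RA minus response in WT on the log2(CPM + 1) scale. For Ruvbl1, the gene of Pontin, the difference was 0.336 (adjusted p = 0.00568 by limma), with means of 28.0 and 28.2 CPM in WT and 34.4 and 44.0 in RA. For Gvin1 it was 2.63 and for Cdh11 1.29, both with a fall in WT. For 2610005L07Rik, a pseudogene copy just outside the rule, it was 0.545, and for Pisd 0.227 (adjusted p = 0.00765 by limma). Groups of 2 samples are too small for a test of single outlying samples.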

How the results depend on the processing

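The rule gave 46 to 58 entries when 1 sample was left out, and 81 with a mean of at least 1 CPM. Members called higher in RA in normal medium numbered 7 to 11 when 1 sample was left out, beside 11. Members called lower there, 4 as reported, were 0 with no filter on low values and with no variance trend, 7 with total-read, median-ratio or quantile scaling and with DESeq2, and 0 to 7 when 1 sample was left out. No call of members lower under starvation was made except without RA starved replicate 2 (0 to 4 over the samples left out), where the starved difference reversed; leaving out 1 sample gave -0.46 to 1.47 for Gm12895 and Gm12896, -0.31 to 1.63 for Filip1l and -0.32 to 1.59 for Cmss1, the lowest with adjusted p = 0.0155, 0.00765 and 0.00562 by limma. The cause was not tested. With the replicate number as a block, 12 members were called higher and 8 lower in normal medium, and 47 higher under starvation. Same-numbered samples of different groups had deviations correlated at -0.00764 to 0.157. With 2 samples per group, these values cannot decide whether same-numbered samples share more than a number. Of the single-gene differences in normal medium, 843 kept their side of the threshold, 34 gained and 54 lost it. Scaling moved the median of all genes by less than 0.1. Every member value, the lowest being 80 reads, lay above the detection floor. Whether counting error moves low members across the WT window was not tested.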
